A study of Mus musculus with 6 samples.

Results

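Ccbe1, Rgs12, Krt90, Sh2d5, Map3k5, Adgrg1, Rab31 and D030045P18Rik are 8 genes that have no established place among cartilage markers and whose levels in sorted Gli1+ and Gli1- cartilage cells did not overlap. They are 8 of the 54532 genes in the count table and 8 of the 14801 that passed a filter on low counts, so none of them was lost to that filter. The 8 genes were picked from these same libraries, on the absence of overlap between the 3 Gli1+ and the 3 Gli1- libraries. Their differences between the populations are therefore given as a description, without a test. Ccbe1, Rgs12 and Krt90 were higher in Gli1+ cells, by about 4.39- to 8.98-fold in the fitted values. Sh2d5, Map3k5, Adgrg1, Rab31 and the long noncoding RNA D030045P18Rik were lower in Gli1+ cells, with Rab31 at 3.44-fold, Sh2d5 at 7.67-fold and D030045P18Rik at or near 0 counts in all 3 Gli1+ libraries.

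The 8 genes belong to unrelated systems. Ccbe1 encodes a secreted matrix protein that helps the protease ADAMTS3 process the lymphatic growth factor VEGF-C, and Rgs12 encodes a scaffold that shortens G protein signals and carries a GoLoco motif. Krt90 encodes a type II keratin, an epithelial intermediate filament protein. Sh2d5 encodes an SH2 adaptor that binds the RAC-regulating protein BCR in neurons, and Map3k5 encodes ASK1, the stress kinase held inactive by thioredoxin that acts upstream of the p38 and JNK kinases. Adgrg1 encodes the adhesion G protein-coupled receptor GPR56, a receptor for type III collagen that acts on RHOA, and Rab31 encodes a small GTPase of the RAB5 subfamily that directs vesicles between the Golgi and endosomes. D030045P18Rik is annotated as a lincRNA, and no function is assigned to it here. Gli1 itself encodes a transcription factor that is both an effector and a target of Hedgehog signaling, which in cartilage is driven by Indian hedgehog.

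The comparison asks which transcripts set cells with an active Gli1 reporter apart from cartilage cells without it. Cells were taken 1 day after tamoxifen (TAM) from mice that were 1 month old, of the genotype Gli1-CreERT2; tdTomato and a c57BL/6 background. All 6 libraries thus share the CreERT2 allele, which is expressed from the Gli1 locus, the Cre-dependent tdTomato reporter, and TAM. CD45- CD31- Ter119- cells, meaning cells without the surface markers of leukocytes, endothelial cells and erythroid cells, were sorted into tdTomato+ (Gli1+) and tdTomato- (Gli1-) cells, with 3 libraries of each. The study's text names costal cartilage and the labels name growth plate, and reporter recombination marks only those Gli1-expressing cells that TAM reached. Libraries held between 17114101 and 18602482 counts, and the number of genes with any count lay between 15000, in Gli1+ replicate 1, and 23360.

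The libraries followed the sort for Gli1, with 86, 104 and 152 counts in Gli1+ replicates 1, 2 and 3 and 14, 19 and 46 in Gli1- replicates 1, 2 and 3. All 12 chondrocyte markers listed passed the filter, and their summed level, led by Col2a1, was 8220 to 20500 CPM (counts scaled to library size by TMM, the trimmed mean of M-values) in Gli1+ libraries and 6360 to 27000 CPM in Gli1- libraries. Markers of cells that the gate should remove were nevertheless found in both populations. The leukocyte list summed to 41.1 to 168 CPM in Gli1+ libraries and to 57.9 to 3340 CPM in Gli1- libraries, where Gli1- replicate 1 stood apart with 22140 counts of S100a8 and 26981 of S100a9. The endothelial list summed to 14.3 to 20.4 CPM in Gli1+ and 40.4 to 88.9 CPM in Gli1- libraries. Of its 5 tested members, 2 were lower in Gli1+ cells without overlap, beside 4.45% of all genes tested. Cdh5, which defines endothelial cells, had 0, 13 and 0 counts in Gli1+ and 65, 17 and 7 counts in Gli1- libraries, which overlap. Tek (34, 0 and 8 against 23, 2 and 8 counts) and Prox1 (24, 11 and 3 against 16, 11 and 38 counts) overlapped as well. With Erg left out, the other 9 endothelial genes summed to 4.67 to 5.61 CPM and 7.14 to 21.2 CPM. The fibroblast and perichondrium list summed to 105 to 1100 CPM in Gli1+ and 487 to 4250 CPM in Gli1- libraries, which overlap. Its sum was lower in the Gli1+ library of every same-numbered pair (839 against 865, 1100 against 4250 and 105 against 487 CPM). Of its 10 genes, 1 was higher in Gli1+ cells, and Pdgfra was lower without overlap. The summed levels of the other lists overlapped as well, with 0.0 to 4.79 and 0.582 to 19.1 CPM for erythroid cells, 11.3 to 39.7 and 10.1 to 28.6 CPM for skeletal muscle, and 5.29 to 18.5 and 3.76 to 10.6 CPM for neural and glial cells. The part of these cells in any of the results was not tested. In bulk libraries of sorted cells, fewer cells that carry a transcript and less of it per cell cannot be told apart.

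Non-overlap was not rare in these data. Of the 14801 genes tested, 598 (4.04%) were higher and 659 (4.45%) were lower in Gli1+ cells without overlap, and the 8 genes were drawn from these 1257. With edgeR's quasi-likelihood test, 0 genes (0.0%) passed a |log2FC| over 1 and an adjusted p under 0.05. At an unadjusted p under 0.05 the same test gave 212 genes higher (1.43%) and 302 lower (2.04%). DESeq2 with the replicate number as a block, the fit with the most calls among the planned ones, called 108 of 13598 genes higher (0.794%) and 316 lower (2.32%), and DESeq2 without the block called 16 genes. These shares are the background for the selection, and nothing is read from them for the 8 genes. At the edge of the rule, Zfyve27 was just inside, with a highest Gli1+ level of 44.0 CPM against a lowest Gli1- level that differed from it only beyond the third digit. Espl1 was just outside, with a lowest Gli1+ level of 2.28 CPM and a highest Gli1- level of 2.28 CPM. All 8 genes lay inside this edge, which their choice required, so their gaps are no test of them. The smallest ratio between the nearest libraries of the populations was 2.25, that of Sh2d5, whose gap ranked 63 of the 14801 tested genes.

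**Figure D1:**
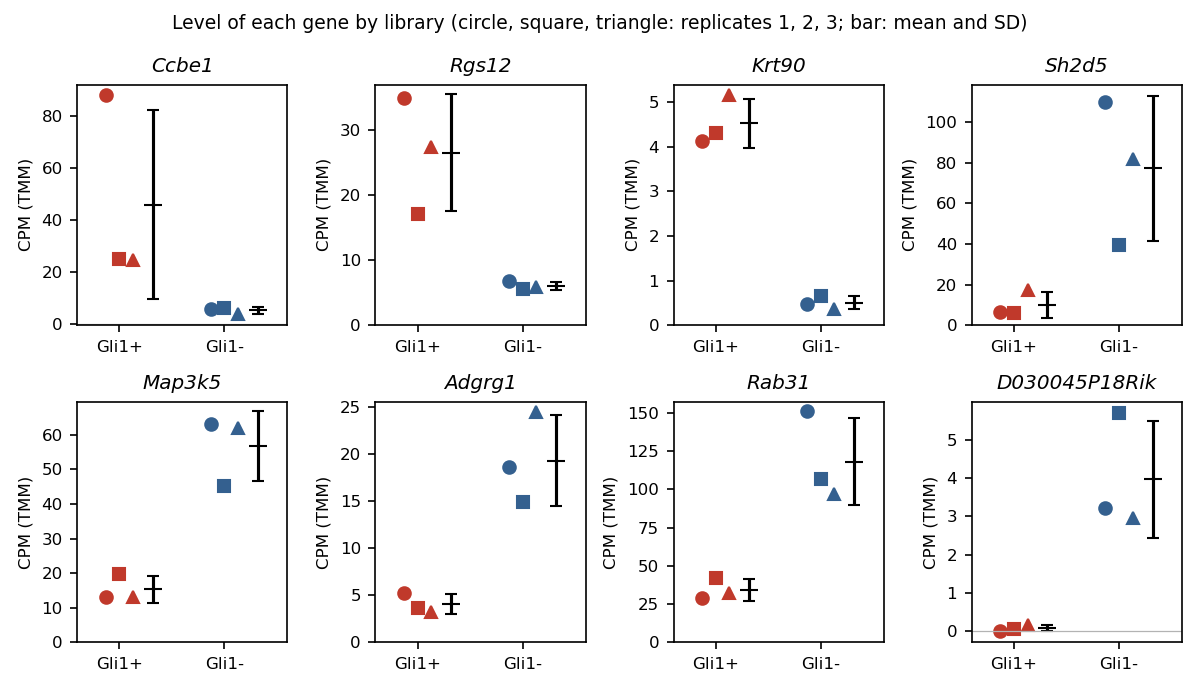
Level of each of the 8 genes in each library, in CPM after TMM scaling on linear axes that differ between panels, with red symbols for Gli1+ and blue for Gli1- libraries, the shape giving the replicate number, and black bars giving the mean and SD of 3 libraries. The red and blue symbols do not overlap in any panel, Ccbe1 is set apart by 1 high Gli1+ library (87.9 CPM), and D030045P18Rik sits at or near 0 in all Gli1+ libraries.

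Ccbe1 (ENSMUSG00000046318, minus strand of chr18:66045302-66302739, GRCm38) spans 257 kb, with up to 12 exons in its annotated transcripts. Its level was 87.9, 24.9 and 24.7 CPM in Gli1+ replicates 1, 2 and 3 and 5.79, 5.90 and 3.65 CPM in Gli1- replicates 1, 2 and 3. The Gli1- libraries were thus close to each other, whereas 1 Gli1+ library lay far above the other two. The Gli1+ mean was 45.8 ± 36.4 CPM and the Gli1- mean 5.11 ± 1.27 CPM (SD, n = 3 each), and the fitted log2FC was 3.16 (SE 0.64), or 8.95-fold. Without Gli1+ replicate 1 the log2FC was 2.25, or 4.76-fold, so that this library accounts for a factor of 1.88 in the size of the difference. Even the lowest Gli1+ library was 4.18 times the highest Gli1- library, and this gap ranked 10 of 14801 tested genes. The counts behind these values were 1661, 406 and 470 against 112, 89 and 69. Of the 50-base windows in the transcripts of Ccbe1, 2.03% also occur in transcripts of other genes, most of them in the antisense gene Gm15958, which shares 320 exonic bases with it.

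Rgs12 (ENSMUSG00000029101, plus strand of chr5:34949445-35039644) has 18 annotated transcripts over 90.2 kb. It was at 34.9, 17.1 and 27.4 CPM in the Gli1+ libraries and at 6.72, 5.50 and 5.82 CPM in the Gli1- libraries. The Gli1- level had the lowest CV of the 8 genes in either population, 10.5%, while the Gli1+ level varied with a CV of 33.9%. The means were 26.5 ± 8.96 and 6.02 ± 0.633 CPM (SD, n = 3), the log2FC was 2.14 (SE 0.46), and it stayed between 1.86 and 2.36 when each library was left out. An antisense gene, Gm43791, overlaps 467 exonic bases of Rgs12 (5.5%), and the sources used here do not say whether counting used strand.

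Krt90 (ENSMUSG00000048699, minus strand of chr15:101552356-101562950) is a compact gene of 9 exons in 10.6 kb. It was at 4.13, 4.30 and 5.15 CPM in the Gli1+ libraries and at 0.465, 0.663 and 0.37 CPM in the Gli1- libraries. Unlike Ccbe1, which had a near-equal fold, Krt90 differed little among the Gli1+ libraries, with a CV of 12.1% against 79.5%. The means were 4.52 ± 0.546 and 0.50 ± 0.149 CPM (SD, n = 3), and the log2FC was 3.17 (SE 0.69), or 8.98-fold. The lowest Gli1+ library was 6.22 times the highest Gli1- library, a gap that ranked 3 of 14801. The absolute level was low: the libraries held 78, 70 and 98 counts in Gli1+ and 9, 10 and 7 counts in Gli1- cells. The miRNA gene Gm44393 lies on the other strand of 138 exonic bases of Krt90, and 3.58% of its 50-base windows are shared with other genes, that one first among them.

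Sh2d5 (ENSMUSG00000045349, plus strand of chr4:138250403-138261332) spans 10.9 kb. It was at 6.51, 6.20 and 17.5 CPM in the Gli1+ libraries and at 110, 39.5 and 82.1 CPM in the Gli1- libraries. Both populations were uneven, with Gli1+ replicate 3 high and Gli1- replicate 2 low. The means were 10.1 ± 6.46 and 77.4 ± 35.7 CPM (SD, n = 3). The fitted difference was a log2FC of -2.94 (SE 0.62). Without Gli1+ replicate 3 the log2FC was -3.61, or 12.2-fold in place of 7.67-fold. Without Gli1- replicate 1, the library with the leukocyte transcripts, it was -2.59. Sh2d5 shares 74 exonic bases (1.98% of its own) with Kif17, which lies on the same strand. Kif17, a kinesin motor gene looked at after its values were seen, was at 1.75, 0.798 and 5.14 CPM in Gli1+ libraries and 13.7, 0.862 and 28.2 CPM in Gli1- libraries, so its populations did overlap.

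Map3k5 (ENSMUSG00000071369, plus strand of chr10:19934472-20142753) is built from up to 30 exons over 208 kb. It was at 13.1, 19.7 and 13.2 CPM in the Gli1+ libraries and at 63.0, 45.2 and 62.1 CPM in the Gli1- libraries. Both number-2 libraries lay toward the other population, and their ratio was the smallest of the 3 same-numbered pairs (log2 ratio -1.19, against -2.26 and -2.23). The means were 15.3 ± 3.80 and 56.8 ± 10 CPM (SD, n = 3), and the log2FC was -1.89 (SE 0.40), or 3.70-fold. It moved little with single libraries, from -2.12 to -1.80. None of its 50-base windows occurs in another gene's transcripts.

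Adgrg1 (ENSMUSG00000031785, plus strand of chr8:94974751-95014217) has 16 annotated transcripts with up to 15 exons. It was at 5.29, 3.68 and 3.26 CPM in the Gli1+ libraries and at 18.6, 14.9 and 24.5 CPM in the Gli1- libraries. The spread was alike in both populations, with CVs of 26.3% and 25.0%. The means were 4.08 ± 1.07 and 19.3 ± 4.83 CPM (SD, n = 3), the log2FC was -2.24 (SE 0.48), or 4.73-fold, and leaving out single libraries gave -2.50 to -2.04. Gli1- replicate 1, with its leukocyte transcripts, was the middle of the Gli1- libraries for this gene.

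Rab31 (ENSMUSG00000056515, minus strand of chr17:65651729-65772752) was the most abundant of the 8 per length in both populations. It was at 28.7, 42.1 and 32.2 CPM in the Gli1+ libraries and at 151, 107 and 97.1 CPM in the Gli1- libraries. It had the smallest fold of the 8 but one of the highest count totals, from 543 to 2912 counts per library. The means were 34.3 ± 6.95 and 118 ± 28.4 CPM (SD, n = 3), and the log2FC was -1.78 (SE 0.39), or 3.44-fold. The highest Gli1- value came from replicate 1, the library with the leukocyte transcripts, and without that library the log2FC was -1.58.

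D030045P18Rik (ENSMUSG00000110874, plus strand of chr10:45807562-45852283) is a lincRNA gene with up to 3 exons in its transcripts and 4867 exonic bases. It had 0, 1 and 3 counts in the Gli1+ libraries and 62, 86 and 56 counts in the Gli1- libraries, that is 0.0, 0.0614 and 0.158 CPM against 3.21, 5.70 and 2.96 CPM. All 3 Gli1+ libraries were thus at or under the floor of 3 counts, whereas each Gli1- library held at least 56. Over the populations there were 4 counts in Gli1+ and 204 in Gli1- cells, a ratio of 51.9 after scaling. Its exact 95% counting interval of 20.0 to 192 covers counting error only, on counts pooled over the libraries. The gene was picked on this difference, so the interval is no test of it. The fitted log2FC of -5.62 (SE 1.12) depends on the prior count that the fit adds, and went to -6.78 without Gli1+ replicate 3, which held 3 of the 4 counts. This gene had the widest gap of all 14801 on the log2 scale with 0.1 CPM added.

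**Figure D2:**
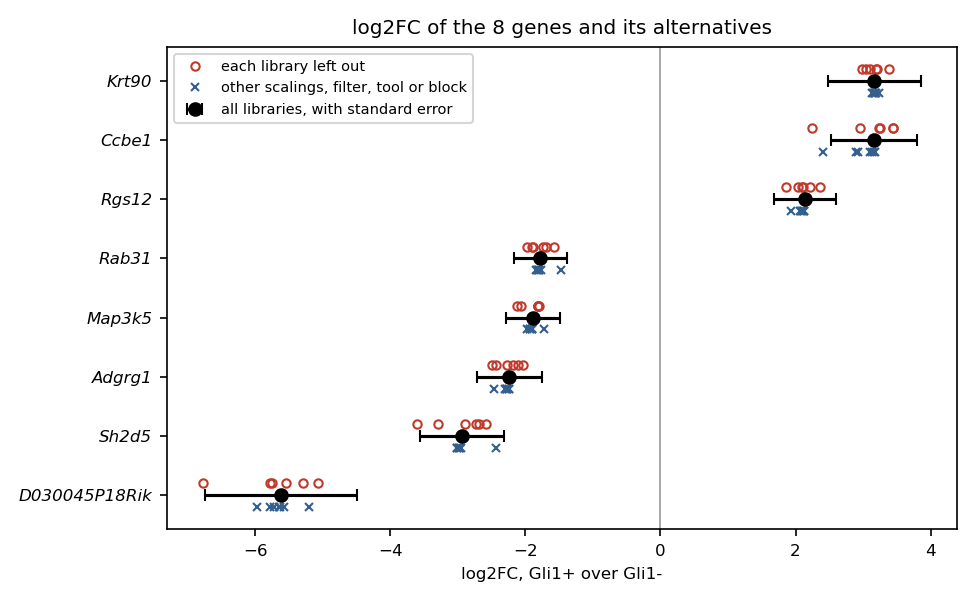
Fitted log2FC of each gene (Gli1+ over Gli1-, horizontal axis) with all libraries (black, bars of 1 standard error), with each library left out (red circles) and under other scalings, no filter, DESeq2 or the replicate block (blue crosses). Ccbe1 comes down to 2.25 without Gli1+ replicate 1, D030045P18Rik reaches -6.78 without Gli1+ replicate 3, and the sides of 0 were fixed by the choice of genes.

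Compared by pairs that share a replicate number, 24 of 24 ratios pointed the way of the population means, which the lack of overlap already fixes. The sizes of the ratios were not fixed, and they varied most for Ccbe1, Sh2d5 and D030045P18Rik. The log2 ratios of Ccbe1 were 3.90, 2.06 and 2.72 in pairs 1, 2 and 3, and those of Sh2d5 were -4.06, -2.65 and -2.22. For Rgs12 they were 2.36, 1.61 and 2.21, and for Krt90 2.88, 2.51 and 3.45. Pair 2 gave the smallest ratio for Ccbe1, Rgs12, Krt90, Map3k5 and Rab31, but the largest for D030045P18Rik (-5.07, where the added prior count weighs on the value).

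Levels of different genes were compared per kilobase of exon. In Gli1+ cells the order was Rab31 (9.01 ± 1.82 CPM per kb, SD, n = 3), Ccbe1 (4.82 ± 3.83), Rgs12 (3.12 ± 1.06), Sh2d5 (2.70 ± 1.73) and Map3k5 (2.52 ± 0.625). Each of these overlapped its neighbour in the order. Krt90 (1.79 ± 0.215), Adgrg1 (0.752 ± 0.198) and D030045P18Rik (0.015 ± 0.0163) followed, each below the gene before it in every library. In Gli1- cells the order was Rab31 (31.0 ± 7.46 CPM per kb), Sh2d5 (20.7 ± 9.55), Map3k5 (9.32 ± 1.65), Adgrg1 (3.57 ± 0.891), D030045P18Rik (0.813 ± 0.312), Rgs12 (0.709 ± 0.0745), Ccbe1 (0.538 ± 0.133) and Krt90 (0.197 ± 0.059). Among genes next to each other in this order, Rab31 with Sh2d5 and D030045P18Rik with Rgs12 overlapped there. The second place of Ccbe1 in Gli1+ cells rests on replicate 1 (9.24 CPM per kb, against 2.62 and 2.60 in replicates 2 and 3), and without that library its mean of 2.61 was below those of Sh2d5 (3.17), Map3k5 (2.70) and Rgs12 (2.62). Krt90, the lowest of the 8 in Gli1- cells, stood above both Adgrg1 and D030045P18Rik in Gli1+ cells.

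**Figure D3:**
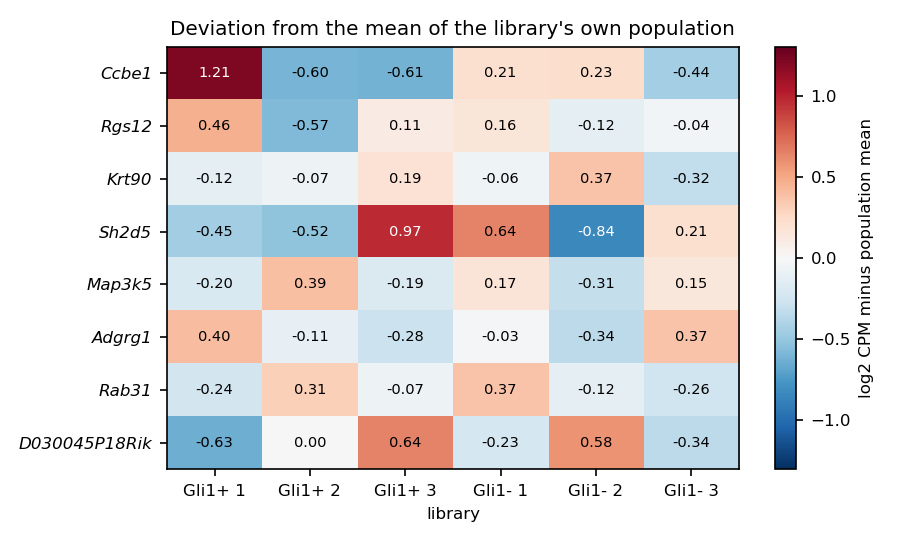
Deviation of each gene (rows) in each library (columns) from the mean of that library's own population, on the log2 CPM scale, with red above and blue below the mean. The largest cells are Ccbe1 in Gli1+ replicate 1 (1.21) and Sh2d5 in Gli1+ replicate 3 (0.97) and Gli1- replicate 2 (-0.84), and no library is red or blue for all 8 genes.

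Within the populations, the genes did not move as 1 group. The choice of genes compared the nearest libraries of the populations, so the spread within a population is not free of that choice. Correlations of the deviations from the population means over the 6 libraries, which share depth and scaling within a library, were positive in 12 of 28 gene pairs, with a median of -0.0682. Ccbe1 and Rgs12, both higher in Gli1+ cells, deviated together (r = 0.705), as did Map3k5 and Rab31 (r = 0.649), both lower there. Krt90 deviated with D030045P18Rik (r = 0.857) although they stood on opposite sides of the comparison. Adgrg1 deviated against both of them (r = -0.872 with Krt90 and -0.921 with D030045P18Rik), and the Gli1+ deviations of D030045P18Rik rest on 0 to 3 counts. With 6 libraries and 2 population means removed, these coefficients only describe the libraries.

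For each gene, the 3 tested genes with the most similar log2 CPM over the 6 libraries were taken as the closest in pattern, and the populations dominate that likeness. Ccbe1 was closest to Foxn1 (r = 0.996), Mcm4 (0.993) and Mtpn (0.989). Rgs12 was closest to Sh3tc2 (0.988), Cyb5r2 (0.987) and Mmp1b (0.985), and Krt90 to Arf2 (0.992), Grik3 (0.986) and Ttc39c (0.982). Sh2d5 was closest to Fgfr1 (0.986), C4b (0.984) and Map10 (0.98). Map3k5 and Adgrg1 shared Manba, the gene of lysosomal beta-mannosidase, among their closest genes (0.984 and 0.987). The other close genes were Mtmr3 (0.988) and Smad3 (0.98) for Map3k5, and Pitpnc1 (0.987) and Il16 (0.985) for Adgrg1. Rab31 was closest to Lgals8 (0.982), Map3k5 (0.975) and the adhesion receptor gene Adgrf5 (0.97), and D030045P18Rik to Slc4a2 (0.992), Fzd10 (0.985) and Zfp821 (0.979).

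RefSeq (GRCm38.p6) promoters were taken with the chromosome of Ccbe1 left out, and Sh2d5 had none among the rest. The promoters, 250 bases before to 50 after a start, covered 6 of the 8 genes, with 8 promoters in all. They were searched on both strands for the GLI consensus GACCACCCA, because the sort was on a GLI gene, for the AP-1 letters TGANTCA, because ASK1 acts on JNK, and for the SOX letters ACAAAG, because SOX factors drive cartilage genes. The promoters with a GLI or AP-1 match are printed first, 5′ to 3′ on the gene's strand with matches in capitals, and those of the pair of genes with the widest gaps, neither with a match, follow them.
Rab31, chr17:65772703-65773002, minus strand: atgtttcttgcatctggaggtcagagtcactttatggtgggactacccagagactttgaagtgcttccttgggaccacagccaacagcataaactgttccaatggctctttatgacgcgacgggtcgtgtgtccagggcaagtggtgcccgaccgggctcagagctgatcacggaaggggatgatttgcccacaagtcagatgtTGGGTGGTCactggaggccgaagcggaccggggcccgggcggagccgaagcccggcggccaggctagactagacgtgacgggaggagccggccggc
Rgs12, second start, chr5:34998828-34999127, plus strand: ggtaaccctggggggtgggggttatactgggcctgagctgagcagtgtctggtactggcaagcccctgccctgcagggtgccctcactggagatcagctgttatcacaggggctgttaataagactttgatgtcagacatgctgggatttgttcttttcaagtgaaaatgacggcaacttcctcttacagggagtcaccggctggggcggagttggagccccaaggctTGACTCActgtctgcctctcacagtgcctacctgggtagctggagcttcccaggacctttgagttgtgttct
Adgrg1, second start, chr8:94984149-94984448, plus strand: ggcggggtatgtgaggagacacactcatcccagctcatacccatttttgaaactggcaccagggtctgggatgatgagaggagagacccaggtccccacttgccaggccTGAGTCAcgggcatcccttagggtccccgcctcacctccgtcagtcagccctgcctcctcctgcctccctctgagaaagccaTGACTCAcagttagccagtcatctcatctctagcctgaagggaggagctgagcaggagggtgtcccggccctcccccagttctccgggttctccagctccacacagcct
Krt90, chr15:101562901-101563200, minus strand: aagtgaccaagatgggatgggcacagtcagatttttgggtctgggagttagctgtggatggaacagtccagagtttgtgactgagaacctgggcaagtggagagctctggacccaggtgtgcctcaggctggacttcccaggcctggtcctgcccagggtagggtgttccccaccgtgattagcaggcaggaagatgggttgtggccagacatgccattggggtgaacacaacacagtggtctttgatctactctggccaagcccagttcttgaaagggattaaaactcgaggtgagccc
D030045P18Rik, chr10:45807454-45807753, plus strand: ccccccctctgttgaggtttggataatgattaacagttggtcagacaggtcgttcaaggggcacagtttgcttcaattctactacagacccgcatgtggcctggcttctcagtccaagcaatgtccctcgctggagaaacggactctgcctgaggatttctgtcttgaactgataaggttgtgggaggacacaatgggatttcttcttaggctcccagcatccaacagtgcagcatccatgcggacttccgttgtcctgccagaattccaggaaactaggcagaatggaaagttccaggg

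Rab31 was the 1 gene with the GLI letters, on the reverse strand at position -46 from its start, whereas 83 of 32851 promoters of the same length hold them (0.253%). AP-1 letters were found at -22 in the second promoter of Rgs12 and at -141 and -59 in the second promoter of Adgrg1, against 2565 of all promoters (7.81%). The SOX letters were found at -80 in the first promoter of Adgrg1, against 6147 of all promoters (18.7%). Letters of the 3 motifs were not present in the promoters of Krt90, Map3k5 and D030045P18Rik or in the first promoter of Rgs12. Base composition differed widely among them: Map3k5 had 79.7% GC and a CpG ratio (observed over expected) of 0.995, whereas Krt90 had 55.0% GC and a CpG ratio of 0.0918. The medians over all promoters were 52.7% and 0.384. Rab31, at 60.3% and 0.714, lay above both, as did Map3k5 and the first promoter of Rgs12 (70.3% and 0.658). A match is a match of letters, and binding was not measured.

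The genes beside the 8 were then examined. Of the 16 nearest tested genes, 1 on each side of each gene, 0 were called by edgeR's quasi-likelihood test. At an unadjusted p under 0.05 it gave 0 of them, beside 3.47% of all genes tested. DESeq2 with the replicate block also called 0, beside 3.12% of all genes. At an unadjusted p under 0.05 edgeR with the block gave 3 of the 16 (18.8%), beside 8.61% of all genes. DESeq2 with the block gave 3 (18.8%) too, beside 13.4%. Map7, a microtubule protein gene 5.72 kb beyond Map3k5, averaged 5.98 ± 2.84 CPM in Gli1+ cells against 14.1 ± 7.37 CPM (log2FC -1.24, SE 0.60). Dok7, 17.1 kb beyond Rgs12, was at 23.9 ± 24.6 and 8.22 ± 3.91 CPM (log2FC 1.54, SE 0.78), and Krt87, the nearest tested gene to Krt90 on one side at 114 kb, had a log2FC of 1.74 (SE 1.02). The nearest genes of Rab31 and D030045P18Rik stood closer to 0, with log2FC values of -0.33 for Vapa, -0.17 for Ppp4r1, -0.09 for Hace1 and 0.16 for Gpx4-ps2. Beside Sh2d5, Hp1bp3, which lies 5.72 kb away, was at 90.1 ± 5.47 and 113 ± 13.1 CPM (log2FC -0.33, SE 0.35). Other neighbours were Lman1 (0.75, SE 0.39) and Pmaip1 (0.50, SE 0.73) for Ccbe1, Msantd1 (-0.23, SE 1.09) for Rgs12, and Krt18 (-0.20, SE 1.06) for Krt90. Further ones were Ddost (-0.09, SE 0.43) for Sh2d5, Pex7 (0.50, SE 0.59) for Map3k5, and Ccdc102a (-0.23, SE 0.57) for Adgrg1.

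**Figure D4:**
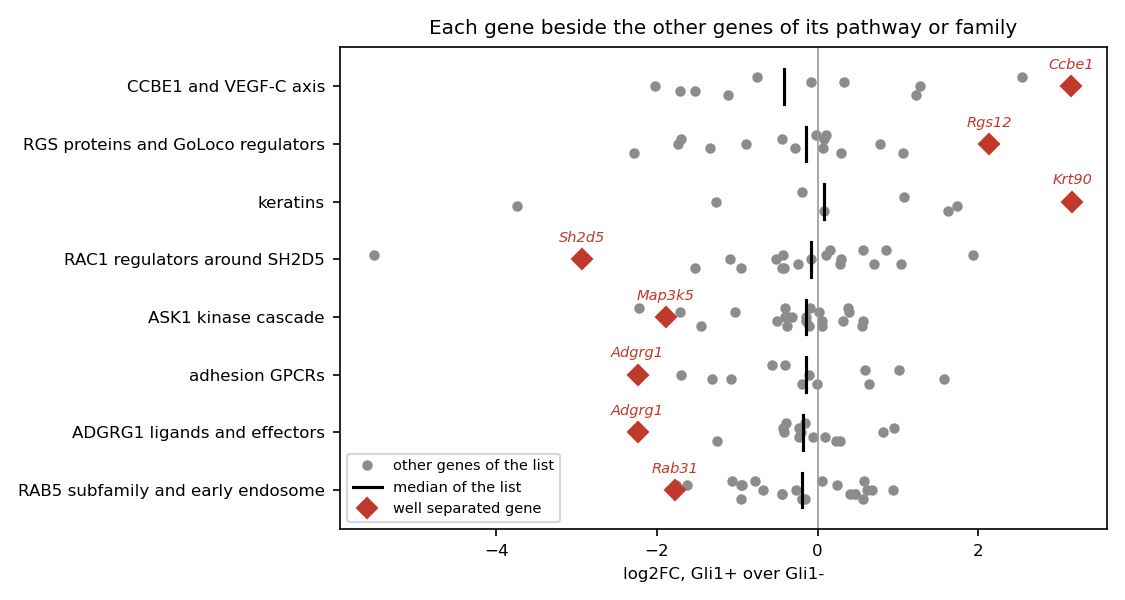
Fitted log2FC (Gli1+ over Gli1-, horizontal axis) of the tested genes of 8 pathway or family lists (rows), with each list's own well separated gene as a red diamond, its other genes as grey points and their median as a black line. The medians lie between -0.42 and 0.08 while the diamonds, which were chosen for their separation, lie between -2.94 and 3.17.

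The other genes of the same pathways and families were counted in 8 lists with 122 tested genes in all. In edgeR's quasi-likelihood test 0 of the 122 were called, and 9 (7.38%) had an unadjusted p under 0.05, beside 514 of all 14801 genes (3.47%). DESeq2 with the replicate block, after its own filter, also tested 122 genes of these lists, but not all the same ones. It called 11 of them (9.02%), 2 higher and 9 lower, beside 424 of 13598 genes in all (3.12%). By contrast, edgeR with the block called 0, at adjusted p-values of 0.328 or more. The median log2FC over all genes tested was 0.0013, and those of the lists lay between -0.42 and 0.08.

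The ligand and receptor side of the CCBE1 axis was mixed. Of 10 tested genes of 14 listed, 4 were higher in Gli1+ cells, the median log2FC was -0.42, and 2 higher and 1 lower passed an unadjusted p of 0.05. Nrp1, a co-receptor for VEGF family ligands, was at 145, 30.3 and 58.6 CPM in Gli1+ libraries and 11.8, 16.1 and 12.0 CPM in Gli1- libraries, with no overlap. Like Ccbe1, it was highest in Gli1+ replicate 1, and its log2FC was 2.55 (SE 0.61, unadjusted p = 0.00303 and adjusted p = 0.9999 in edgeR's quasi-likelihood test, with 0.000194 to 1.0 over 13 alternatives). Without that library the log2FC of Nrp1 was 1.72. Nrp1 was called in 3 of the 13 alternatives, with an adjusted p of 0.00309 in DESeq2 with the replicate block. Nrp2, the co-receptor for VEGF-C, averaged 257 ± 116 and 109 ± 33.6 CPM (SD, n = 3), for a log2FC of 1.23 (SE 0.50). Adamts3, the protease that CCBE1 assists, went the other way at 9.21, 8.29 and 4.04 CPM in Gli1+ against 16.7, 36.7 and 34.1 CPM in Gli1- libraries. The log2FC of Adamts3 was -2.02 (SE 0.53, unadjusted p = 0.00506 and adjusted p = 0.9999 in edgeR's quasi-likelihood test, with 6.88e-11 to 1.0 over 13 alternatives). Adamts3 was called in 2 of these alternatives. Its adjusted p was 0.00725 in DESeq2 with the replicate block. The value of 6.88e-11 came from DESeq2 with the block and without both number-1 libraries, a fit added after seeing the data. Adamts2, a related procollagen protease, was at 5.89 ± 4.34 and 19.3 ± 14.5 CPM (log2FC -1.71, SE 0.87, but -2.34 without Gli1+ replicate 2 and -1.05 without Gli1- replicate 2). These 4 genes were the ones that DESeq2 with the replicate block called in this list. Pdpn, podoplanin, was the most abundant per length and was level between the means at 170 ± 19.1 and 180 ± 92.5 CPM. The ligand gene Vegfc, chosen after its values were seen, had 40, 6 and 8 counts in Gli1+ and 44, 42 and 24 in Gli1- libraries, which overlap. The endothelial marker list, led by Erg, summed to 14.3 to 20.4 CPM in Gli1+ and 40.4 to 88.9 CPM in Gli1- libraries. Without Erg it summed to 4.67 to 5.61 and 7.14 to 21.2 CPM. The list also holds Kdr (0, 0 and 6 against 18, 10 and 3 counts), Flt4 (0, 1 and 11 against 16, 1 and 8), Lyve1 (0, 6 and 4 against 23, 14 and 6) and Prox1 (24, 11 and 3 against 16, 11 and 38). The counts of each of these genes were low and met or overlapped between the populations. The part of endothelial cells in the values of the CCBE1 axis was not tested.

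The other regulators of G protein signaling lay on both sides of 0. Of 14 tested genes with an RGS domain or a GoLoco motif, 6 were higher in Gli1+ cells (median log2FC -0.15), and 0 higher and 2 lower passed an unadjusted p of 0.05. Rgs16, the most abundant per length, was at 496 ± 253 and 290 ± 122 CPM (SD, n = 3; log2FC 0.78, SE 0.55). Rgs2 was at 2.38, 19.8 and 5.09 CPM in Gli1+ libraries and 31.1, 74.8 and 27.8 CPM in Gli1- libraries. That is a log2FC of -2.29 (SE 0.82, and -3.58 without Gli1+ replicate 2), on the other side from Rgs12, and Rgs2 was the gene of this list called by DESeq2 with the replicate block. Rgs4 was at 1.65 ± 0.861 and 5.53 ± 3.33 CPM (log2FC -1.74, SE 0.72, or -1.15 without Gli1- replicate 2).

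Most keratin genes were hardly present. Of 53 listed, 7 passed the filter, 4 of them were higher in Gli1+ cells, and the median log2FC was 0.08. Krt16, a keratin of stressed epithelium and the most abundant per length, was at 3.12, 50.7 and 14.8 CPM in Gli1+ libraries and 12.5, 139 and 13.4 CPM in Gli1- libraries. Both number-2 libraries were thus the highest for Krt16, and its log2FC of -1.27 (SE 1.17) became 0.80 without Gli1- replicate 2 and -2.62 without Gli1+ replicate 2. Krt13 was at 18.5 CPM in Gli1- replicate 2 and at most 1.48 CPM in any other library, and it was lower in Gli1+ cells by DESeq2's blocked test. Its log2FC in edgeR was -3.75 (SE 1.54) with all libraries, -1.29 without Gli1- replicate 2 and -4.45 without Gli1+ replicate 2. Krt7 was at 3.04 ± 2.06 and 0.978 ± 0.248 CPM (log2FC 1.63, SE 0.81, or 1.00 without Gli1+ replicate 2). The epithelial marker list as a whole overlapped between the populations, at 7.40 to 41.3 and 11.6 to 34.8 CPM, and basal keratin Krt5 was at 0 to 3 counts per library.

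Around SH2D5, 19 of 20 regulators of RAC1 were tested. Of these, 9 had a higher fitted level in Gli1+ cells, and their median log2FC was -0.08. One passed an unadjusted p of 0.05 in each direction, and DESeq2 with the replicate block called 0. The higher one was Pak3, a RAC effector kinase, at 81.3, 12.6 and 21.0 CPM in Gli1+ libraries and 10.5, 5.11 and 14.4 CPM in Gli1- libraries, which overlap. Its log2FC of 1.93 (SE 0.76) was 0.72 without Gli1+ replicate 1. The lower one was Rac2, the RAC gene of blood cells, at 188 CPM in Gli1- replicate 1 and at most 2.15 CPM in the other 5 libraries. Its log2FC of -5.52 (SE 2.18) thus came from the library with 1057 counts of the leukocyte gene Ptprc, and it was 0.87 without that library and -6.16 without Gli1- replicate 2. Arhgdia, the most abundant per length, was at 391 ± 117 and 533 ± 137 CPM (log2FC -0.44, SE 0.45). Bcr, whose product binds SH2D5, was examined after its values were seen, and was at 65.9, 37.2 and 44.9 CPM in Gli1+ libraries and 109, 66.5 and 110 CPM in Gli1- libraries. Its lowest Gli1- library was just above its highest Gli1+ library (log2FC -0.95, SE 0.42).

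In the ASK1 cascade 22 of 24 genes were tested, 8 were higher in Gli1+ cells, the median log2FC was -0.15, and 0 passed an unadjusted p of 0.05. Jun, the AP-1 gene downstream of JNK and the most abundant per length, was at 205, 1570 and 671 CPM in Gli1+ libraries and 764, 4190 and 1720 CPM in Gli1- libraries. The populations overlapped, but in each same-numbered pair the Gli1- library was higher. Txnip, the thioredoxin-binding protein gene, showed the same order at 59.2, 298 and 54.3 against 206, 480 and 153 CPM. DESeq2 with the replicate block called both lower. In edgeR the log2FC of Jun was -1.45 (SE 0.88), -2.35 without Gli1+ replicate 2 and -0.62 without Gli1- replicate 2. That of Txnip was -1.03 (SE 0.78), -2.32 and -0.42 in the same fits. The p38 kinase genes Mapk12 (log2FC -1.72, SE 0.93) and Mapk13 (-2.22, SE 1.32) had the smallest unadjusted p in edgeR, 0.101 and 0.13 without adjustment. Mapk13 was at -1.37 without Gli1- replicate 1 and at -2.93 without Gli1+ replicate 3.

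Of the other adhesion GPCR genes, 12 of 26 passed the filter, 4 were higher in Gli1+ cells, and the median log2FC was -0.15. By unadjusted p under 0.05 as by DESeq2 with the block, 0 were called. Adgra3, the most abundant per length, was at 120 ± 48.4 and 129 ± 26.6 CPM (SD, n = 3; log2FC -0.11, SE 0.44). Adgrf5, at 0.635, 0.921 and 0.473 against 2.95, 1.66 and 2.01 CPM, and Adgra2, at 2.65, 2.82 and 5.04 against 8.12, 7.83 and 6.24 CPM, were lower in Gli1+ cells without overlap, though with unadjusted p-values of 0.0581 and 0.0833 in edgeR. Among 14 genes for ligands and effectors of ADGRG1, all tested, 5 were higher in Gli1+ cells, and the median log2FC was -0.19. Its ligand gene Col3a1 was at 168, 259 and 22.5 CPM in Gli1+ libraries and 300, 697 and 74.9 CPM in Gli1- libraries. These ranges overlap widely, each Gli1- library was above its same-numbered Gli1+ library, and DESeq2 with the replicate block called Col3a1 lower. In edgeR its log2FC was -1.25 (SE 0.97), -1.93 without Gli1+ replicate 2 and -0.37 with Gli1- replicate 2 left out. The sum of the fibroblast and perichondrium list was also lower in the Gli1+ library of each pair. So was its leading gene Col1a2, with 5820, 8060 and 643 counts in Gli1+ and 6965, 28461 and 2208 in Gli1- libraries. Single genes of the list differed from this. In pair 1, Postn (4000 against 1147 counts), Col1a1 (4041 against 3664) and Thy1 (62 against 28) were higher in Gli1+, and the rest of the list was lower. Thy1 was also higher in pair 3 (17 against 6). The part of these cells in the values of Col3a1 was not tested. The RHOA effector kinases Rock1 (log2FC 0.82, SE 0.61) and Rock2 (0.95, SE 0.69) and the tetraspanin gene Cd9 (-0.42, SE 0.69) did not pass an unadjusted p of 0.05. Without Gli1+ replicate 1 those of Rock1 and Rock2 were 0.07 and -0.10, and without Gli1+ replicate 2 that of Cd9 was -1.15.

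The RAB5 subfamily and early endosome list was tested in full, 24 of 24 genes. In it 10 genes had higher levels in Gli1+ cells, and the median log2FC was -0.19. The gene with an unadjusted p under 0.05 was Als2cl, at 1.75, 10.2 and 8.30 CPM in Gli1+ libraries and 14.1, 16.5 and 37.9 CPM in Gli1- libraries (log2FC -1.76, SE 0.73). DESeq2 with the replicate block called Als2cl and Rin2, an exchange factor for RAB5, lower. Rin2 was at 56.8, 200 and 146 against 147, 337 and 302 CPM, so its populations overlapped although each Gli1- library was above its same-numbered Gli1+ library. Rab5c, the most abundant per length, was at 69.5 ± 36.9 and 111 ± 30.5 CPM (log2FC -0.68, SE 0.53), and the sorting receptor gene Sort1 had a log2FC of -0.94 (SE 0.50). Rab22a, the closest relative of Rab31 and examined after its values were seen, was at 67.3, 75.0 and 81.2 CPM in Gli1+ libraries and 97.0, 94.2 and 111 CPM in Gli1- libraries. It was thus lower in Gli1+ cells without overlap as well, but by a log2FC of -0.44 (SE 0.35), against -1.78 for Rab31.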

How the data were processed

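Poly-A selected RNA of 6 sorted libraries, 3 Gli1+ and 3 Gli1-, was sequenced. The authors deposited 1 table of counts, whole reads per gene and library, neither normalized nor pooled. The submitters' processing notes name HISAT2 2.0.5, featureCounts 1.5.0-p3 and mm10. Strand use in counting is not given in the sources used here, so reads of a gene and its antisense partner could not be told apart. GENCODE M21 (GRCm38) held 54409 of the table's 54532 genes, 98.3% of them at identical coordinates. Ccbe1 did not, and it has 9511 exonic bases in the table against 10831 in M21. Per-sample columns left unused numbered 0. Groups and replicate numbers were taken from the labels, and the study describes 3 biological replicates, without saying that a number marks a mouse.

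The genes were filtered with filterByExpr (minimum count 10), scaled by TMM and fitted by quasi-likelihood in edgeR 4.0.16 (R 4.3.3, prior count 2 for log2 CPM), with Benjamini-Hochberg adjustment over 14801 genes. The log2FC, its SE and CPM per library describe the 8 genes. Gaps were ranked on log2(CPM + 0.1). Calls needed a |log2FC| over 1 and an adjusted p under 0.05, the study's thresholds. At these thresholds the study itself reports differentially expressed genes between the populations, from a test that it does not name. The 8 genes, the partner and marker lists and the alternatives were chosen with earlier results of these data known. Besides the 8 genes, the text names Gli1, the 3 tested genes most correlated with each (Pearson), the nearest tested gene on each side (1 of which is not reported here), and of each partner list the member with the highest CPM per kb and the 2 with the smallest unadjusted p. Vegfc, Bcr, Kif17, Rab22a and the further partner genes that DESeq2 called were chosen after their values were seen. The marker lists cover chondrocytes, fibroblasts and perichondrium, endothelial cells, leukocytes, erythroid cells, skeletal muscle, epithelium, and neural and glial cells.

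Over the tested genes, how far a library lay from its population mean correlated between libraries of the same number, with r of 0.223, 0.72 and 0.471. Of the differently numbered libraries, Gli1+ 1 with Gli1- 3 (0.274) and Gli1+ 3 with Gli1- 1 (0.107) also passed 0.1, and the rest were negative. The study describes both populations as sorted from the same mice, and libraries were taken as paired by number since every same-numbered coefficient was over 0.1. That cut does not single out this pairing, since Gli1+ 1 correlated more with Gli1- 3 than with Gli1- 1. The log2FC, SE and p-values of edgeR come from the fit without the block unless the block is named. Alternatives were DESeq2 size factors, library size alone, no filter, DESeq2 1.42.0 with and without the replicate block, the block in edgeR, and each library left out. DESeq2 with the block and without both number-1 libraries was added after seeing the data. Library totals of 17114101 to 18602482 counts set the depth, and intervals cover counting error only. The fits were first run on simulated counts that varied less between libraries than these data, so that check does not show how the fits perform here. Promoters are from RefSeq (GRCm38.p6) with chr18 left out. Ccbe1 lies on chr18, so its promoter was not searched, and the shares and medians of all promoters also lack that chromosome. Shared windows of 50 bases were counted in the M21 transcripts. Tables and figures were made with Python 3.11.15, pandas 2.3.3 and matplotlib 3.10.9.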

Additional observations from a re-analysis of the deposited data

How the results depend on the processing

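The sides of the 8 genes were fixed by their selection, so only the sizes of their differences are of use here. Of 104 alternative values of the log2FC, 101 moved by less than 1 SD between libraries. The exceptions were Ccbe1 without Gli1+ replicate 1 (2.25 in place of 3.16), D030045P18Rik without Gli1+ replicate 3 (-6.78 in place of -5.62), and Rab31 at -1.47 with DESeq2, the replicate block and both number-1 libraries left out. Each gene's SD includes the library left out, so leaving out 1 library can hardly move a value past it. The count is therefore no measure of how firm the sizes are. Sh2d5 without Gli1+ replicate 3, at 12.2-fold in place of 7.67-fold, stayed under this mark. With single libraries left out, the log2FC lay between 2.25 and 3.45 for Ccbe1, 1.86 and 2.36 for Rgs12, 2.99 and 3.38 for Krt90, -3.61 and -2.59 for Sh2d5, -2.12 and -1.80 for Map3k5, -2.50 and -2.04 for Adgrg1, -1.97 and -1.58 for Rab31, and -6.78 and -5.08 for D030045P18Rik.

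The counts of calls depended on the tool. Over all genes, 0 were called by edgeR's quasi-likelihood test with TMM (514 at an unadjusted p under 0.05), and 0 with each library left out. When low counts were not filtered, edgeR gave 267 calls in 28536 genes (0.936%, 20 of them higher) and 9 in 177 partner genes (5.08%). DESeq2 without a block called 16 genes over all and 0 among the partners. The replicate block left edgeR at 0 calls over all genes (1274 at an unadjusted p under 0.05, smallest adjusted p 0.307), 0 among the partners and 0 among the neighbours. With the replicate block DESeq2 called 424 genes over all (3.12%) and 11 among the partners (9.02%). With both number-1 libraries left out as well, an alternative chosen after seeing the data, it called 725 of 12653 genes (5.73%), 17 of 111 partners (15.3%) and 1 of 16 neighbours (6.25%), which was Dok7 beside Rgs12. Of the 11 partner genes, 9 were called there too, and Nrp2 and Rin2 were not. The cause of the difference between the tools was not tested. The biological coefficient of variation was 0.662, or 0.466 with the block. For D030045P18Rik the 4 counts in Gli1+ cells limit the precision of its ratio.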
